A study of Homo sapiens with 11 samples.

Results

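BRCA2 siRNA was compared with control siRNA in hTert-HME1 cells grown with epidermal growth factor (EGF), using 6 of the 11 libraries of the study. hTert-HME1 is a line of human mammary epithelium made immortal by telomerase. The 3 libraries labelled BRCA2 siRNA and the 3 labelled control siRNA were all from passage 6, in complete mammary epithelial growth medium that contained EGF, and were transfected with RNAiMAX. Each target had a single siRNA (labelled BRCA2-1 and control-2), so off-target and on-target effects cannot be told apart. Replicates carry the letters A, B and C in both groups. The other 5 libraries came from the same line at the same passage in medium without EGF, with control siRNA (A and C) or BRCA2 siRNA (A, B and C), and are used only to ask whether the siRNA difference depended on the medium. The RNA was total RNA depleted of ribosomal RNA. All 6 libraries enter the comparison by their labels, and 17950 of the 40460 genes in the deposited table reached the minimum value for testing, 3.32 on the log2 scale in at least 2 of the 11 libraries.

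BRCA2 is a protein of homologous recombination, the repair of broken DNA from an intact copy, and it also protects stalled replication forks. Cells that lose it are known to accumulate DNA damage. EGF drives proliferation of mammary epithelial cells in culture through its receptor EGFR and the MAPK cascade. The mitochondrial genome, which features in the results, encodes a few subunits of respiratory complexes I, III and IV and of the ATP synthase, together with their ribosomal and transfer RNAs. It is transcribed as long polycistronic RNAs that are cut into single mRNAs, and the remaining subunits come from nuclear genes.

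Few genes passed the test of the siRNA difference with EGF, and those that did were lower with BRCA2 siRNA. At an adjusted p below 0.05, 19 genes fell (0.106% of those tested) and 0 rose (0%). At an unadjusted p below 0.05 in limma, 800 were lower (4.46%) and 720 higher (4.01%). Of the 19, 8 were mRNAs of the mitochondrial genome, 2 were nuclear copies of mitochondrial genes and 9 were other nuclear genes. Over all tested genes, 76 differed by at least 1.5-fold in either direction (0.423%) and the median difference was 0.00 on the log2 scale. The model was limma with the replicate letter as a block, so each value is a difference within a letter averaged over the 3 letters. Differences are given as BRCA2 siRNA minus control siRNA on the log2 scale, with the moderated standard error after ±. All 19 genes were lower in each of the 3 letters, as were 14.8% of all tested genes. In 17 of the 19 every BRCA2 siRNA library lay below every control library, as in 3.38% of all tested genes. The 19 were picked by a test on these same values, so neither count is separate support. The calls rest on the block, the trend and the filter: limma passed 0 of the 17950 genes without the block (337 at an unadjusted p below 0.05), 0 without a mean-variance trend (1382) and 0 of all 40460 without the minimum value (2121). Genes that rose were called only in other fits: 3 with robust moderation, and 14, 50 and 43 with replicate A, B or C left out. Genes that fell then numbered 37 with robust moderation and 46, 59 and 85 with A, B or C left out.

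**Figure D1:**
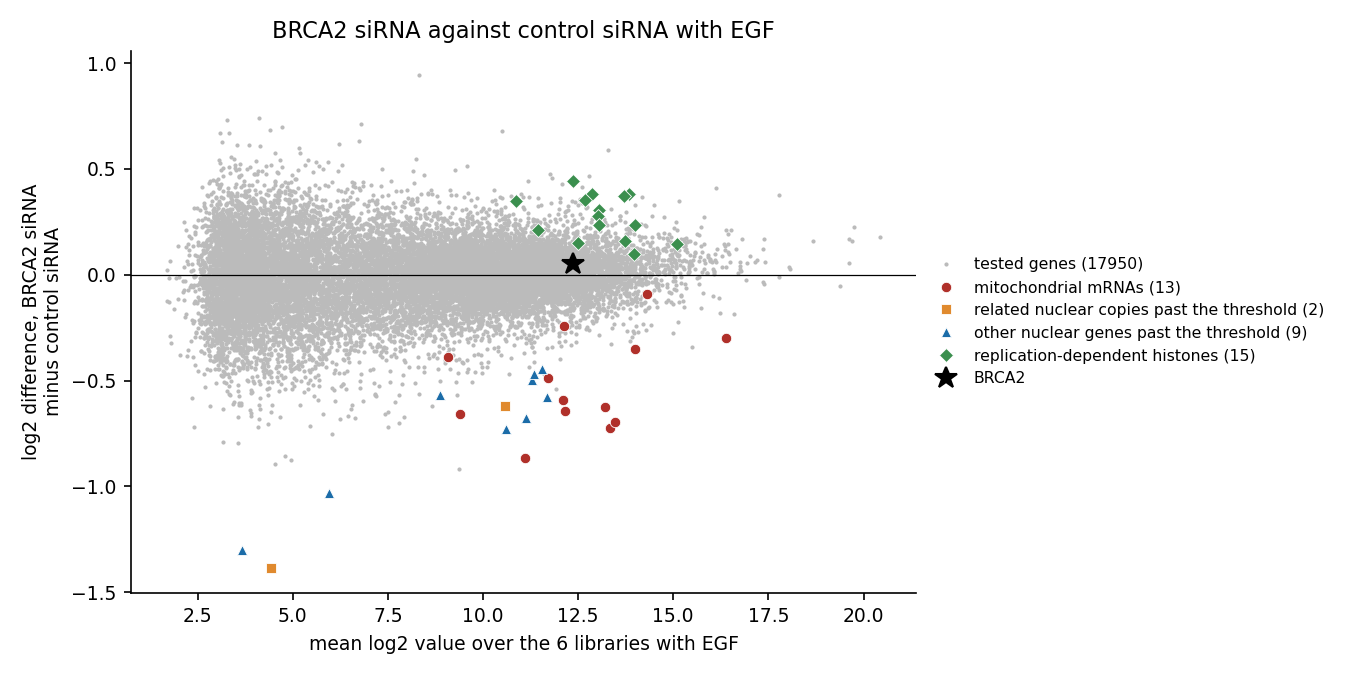
Each point is 1 of the 17950 tested genes, with its mean log2 value over the 6 libraries with EGF on the x axis and its log2 difference (BRCA2 siRNA minus control siRNA) on the y axis. The 13 mitochondrial mRNAs lie between -0.87 and -0.09, the 15 replication-dependent histones between 0.10 and 0.44, and BRCA2 lies at 0.05.

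Across genes the 3 letters agreed little. The Pearson correlation of the letter-wise differences over all tested genes was 0.11 for A with B, 0.11 for A with C and 0.06 for B with C. These are correlations across genes, which are not independent replicates. The letters themselves moved many genes: the standard deviation across genes of library B minus library C was 0.48 with control siRNA and 0.43 with BRCA2 siRNA, against 0.30, 0.22 and 0.25 for the siRNA difference in letters A, B and C. The cells carried the markers of basal epithelium, with all 22 listed markers tested, KRT5 between 17.21 and 17.65 and KRT14 between 16.30 and 16.65 in the 6 libraries. Of 18 luminal markers 8 were tested, and of 14 leukocyte and endothelial markers 3, with PTPRC at 3.10 or less. Of 23 fibroblast and mesenchymal markers 22 were tested, so reaching the minimum value does not separate that list from the basal one. Their mean in control libraries A, B and C was 9.20, 9.17 and 9.26, against 14.27, 14.42 and 14.05 for the basal markers. The labels call the replicates biological but do not say that they were separate cultures, so the p-values measure the spread between these samples.

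The targeted transcript itself showed no loss in the BRCA2 siRNA group. BRCA2 stood at 12.45, 12.13 and 12.48 in control libraries A, B and C, and at 12.43, 12.37 and 12.40 in the libraries labelled BRCA2 siRNA. The groups overlapped, and the letter-wise differences were -0.01, 0.24 and -0.07. The blocked difference was 0.05 ± 0.08 (adjusted p = 0.891), and it was -0.043 without replicate B. Without EGF the corresponding difference was 0.75, and the difference between media was -0.70 (adjusted p = 0.0125). A knockdown is thus not visible in the RNA of these 6 libraries. The protein was not measured, and directions below are those of the libraries labelled BRCA2 siRNA.

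None of the listed partners of BRCA2 passed either. In limma 0 of 13 members, BRCA2 included, passed the threshold, and 1 had an unadjusted p below 0.05 in the higher direction, against 4.01% of all tested genes. PALB2, which bridges BRCA2 to BRCA1, differed by 0.10 ± 0.07 (adjusted p = 0.74), BRCA1 by 0.08 ± 0.07 (adjusted p = 0.79) and BARD1, the partner of BRCA1, by 0.11 ± 0.07 (adjusted p = 0.687). SEM1, the small acidic protein that binds BRCA2, had the smallest p of the list, with 0.20 ± 0.09 (adjusted p = 0.558). The list's median was 0.08.

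All 13 mRNAs of the mitochondrial genome had lower values in the BRCA2 siRNA library of each letter, a pattern that 14.8% of all tested genes showed. Their median difference was -0.59, and 8 of the 13 fell. In 9 of the 13 the groups did not overlap, against 3.38% of all tested genes lower without overlap. In limma 12 of the 13 had an unadjusted p below 0.05, against 4.46% of tested genes in that direction. The 13 are cut from shared long RNAs, so they are not 13 separate observations. The list was also chosen with earlier results of these data known, so these counts are not separate support. The mean of the 13 was 12.70, 12.64 and 12.92 in control libraries A, B and C and 11.99, 12.29 and 12.44 in the BRCA2 siRNA libraries. These are levels in bulk RNA, in which fewer cells carrying a transcript and less of it per cell cannot be told apart. The median difference of the 13 was -0.84 in letter A, -0.37 in B and -0.53 in C. Letter A had the widest difference in 10 of them.

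Of the 7 mitochondrial subunits of complex I, the NADH dehydrogenase, 6 fell. MT-ND6 stood at 11.53, 11.67 and 11.42 in the control libraries and at 10.27, 10.94 and 10.81 with BRCA2 siRNA. The means were 11.54 ± 0.13 and 10.67 ± 0.36 (SD, n = 3 each), and every BRCA2 siRNA library lay below every control library. Its difference was -0.87 ± 0.10, or 1.82-fold lower (adjusted p = 0.00382). In the fit over all 11 libraries with the letter as a block within each medium it did not pass (adjusted p = 0.0595). MT-ND6 is the 1 mitochondrial protein gene that is transcribed in the direction opposite to the others.

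MT-ND4 gave 13.64, 13.57 and 13.92 in the control libraries and 12.66, 13.09 and 13.21 with BRCA2 siRNA, with no overlap. It fell by 0.73 ± 0.09 (adjusted p = 0.00382). MT-ND5 gave 13.81, 13.79 and 13.88 against 12.84, 13.24 and 13.30, again without overlap, and fell by 0.70 ± 0.09 (adjusted p = 0.00382). MT-ND4L, whose coding sequence shares 7 bases with that of MT-ND4, fell by 0.66 ± 0.10 (adjusted p = 0.0174), so reads over their junction may count for either. MT-ND2 fell by 0.64 ± 0.08 (adjusted p = 0.00595) and MT-ND1 by 0.59 ± 0.09 (adjusted p = 0.0128), also without overlap between groups. The remaining complex I subunit, MT-ND3, was 12.34, 12.27 and 12.15 against 11.84, 12.07 and 12.11. Its groups did not overlap, but the difference of -0.24 ± 0.08 did not pass the threshold (adjusted p = 0.453).

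MT-CYB encodes cytochrome b, the 1 subunit of complex III that the mitochondrial genome supplies. It was 13.44, 13.56 and 13.56 in the control libraries and 12.54, 13.07 and 13.08 with BRCA2 siRNA. It fell by 0.62 ± 0.09 (adjusted p = 0.00942), with no overlap. Of the 2 ATP synthase subunits, MT-ATP6 was 11.84, 11.66 and 12.39 against 11.26, 11.32 and 11.85. Its groups overlapped, since BRCA2 siRNA library C lay above control libraries A and B, but each letter was lower and the blocked difference passed, at -0.49 ± 0.07 (adjusted p = 0.0174). MT-ATP8 was 9.25, 8.95 and 9.65 against 8.63, 8.75 and 9.30, with overlap, and its difference of -0.39 ± 0.10 did not pass (adjusted p = 0.243). The coding sequences of MT-ATP8 and MT-ATP6 share 46 bases, so reads in that stretch cannot be assigned to 1 of them.

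None of the 3 subunits of complex IV, cytochrome c oxidase, passed. MT-CO1 was 16.44, 16.37 and 16.79 in the control libraries against 16.07, 16.25 and 16.40, a difference of -0.30 ± 0.10 (adjusted p = 0.407). MT-CO2 differed by -0.35 ± 0.08 (adjusted p = 0.16) without overlap between the groups. MT-CO3 differed by -0.09 ± 0.07 (adjusted p = 0.754), the smallest difference of the 13. Whether complex I mRNAs moved more than complex IV mRNAs was not tested.

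**Figure D2:**
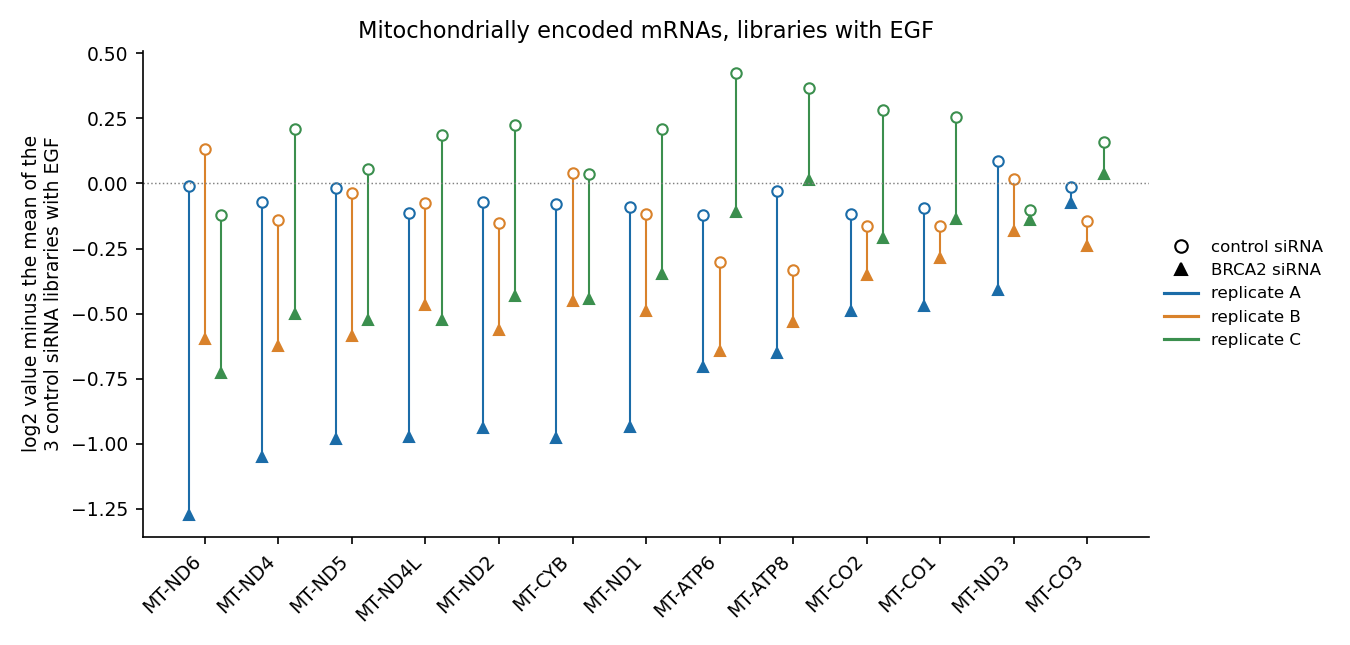
Values of the 13 mitochondrial mRNAs in each library with EGF, as log2 value minus the mean of the 3 control siRNA libraries, ordered by the blocked difference. Open circles are control siRNA and filled triangles BRCA2 siRNA, joined within a replicate letter. Every triangle lies below the circle of its letter, and letter A has the longest line in 10 of the 13.

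The ribosomal RNAs of the same genome, which the depletion step can remove to different degrees, showed no common shift. MT-RNR2, the large-subunit rRNA, was 12.39, 12.13 and 12.15 in the control libraries and 11.86, 13.24 and 11.83 with BRCA2 siRNA (difference 0.09 ± 0.21, adjusted p = 0.935). MT-RNR1, the small-subunit rRNA, was 10.85, 10.46 and 10.35 against 9.72, 11.71 and 9.51 (difference -0.24 ± 0.30, adjusted p = 0.86). For both, BRCA2 siRNA library B was the highest of the 6 libraries and libraries A and C with BRCA2 siRNA were the lowest. Of the transfer RNAs, MT-TF differed by -0.80 ± 0.17 (adjusted p = 0.146) and MT-TP by -0.20 ± 0.12 (adjusted p = 0.641).

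The nuclear genome carries copies of mitochondrial DNA, and 7 such pseudogenes from 1 stretch of chromosome 1 were tested. Of these, 6 were lower with BRCA2 siRNA in all 3 letters (14.8% of all tested genes), 5 had lower groups without overlap (3.38%), and 2 fell (0.106%). MTATP8P1 was 5.01, 5.26 and 5.14 in the control libraries and 3.73, 3.98 and 3.53 with BRCA2 siRNA. The groups were far apart, and its difference of -1.39 ± 0.17 was the widest among the 19 genes that fell (adjusted p = 0.00382). MTND2P28 was 10.77, 10.72 and 11.17 against 10.02, 10.31 and 10.46, without overlap, and fell by 0.62 ± 0.08 (adjusted p = 0.00794). MTND1P23 (-0.70, adjusted p = 0.183), MTCO2P12 (-0.66, adjusted p = 0.182), MTATP6P1 (-0.56, adjusted p = 0.229), MTCO1P12 (-0.31, adjusted p = 0.199) and MTCO3P12 (-0.12, adjusted p = 0.757) did not pass.

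The sequence of MTATP8P1 is printed with that of MT-ATP8 because it shows how few bases separate a nuclear copy from the mitochondrial gene. Both are from GENCODE 29 on GRCh38, a later build than the hg19 named in the submitters' processing notes, on the plus strand at chrM:8366-8572 and chr1:633535-633741. They are written 5′ to 3′, and capitals mark the 5 bases that differ over 207 aligned bases (97.6% identity).
MT-ATP8: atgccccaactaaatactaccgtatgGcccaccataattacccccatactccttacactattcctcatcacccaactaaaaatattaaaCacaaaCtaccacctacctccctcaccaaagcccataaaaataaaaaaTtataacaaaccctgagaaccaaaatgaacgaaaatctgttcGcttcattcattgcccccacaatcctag
MTATP8P1: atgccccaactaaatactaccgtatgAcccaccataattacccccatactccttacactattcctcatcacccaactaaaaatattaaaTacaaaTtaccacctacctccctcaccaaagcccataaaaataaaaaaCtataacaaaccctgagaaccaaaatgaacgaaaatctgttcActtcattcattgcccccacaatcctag

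With the MT-ATP8 base first and positions counted from the first base of the coding sequence, the substitutions are G27A, C90T, C96T, T138C and G180A. Of the 50-base windows of MTATP8P1, 8.23% occur unchanged in a mitochondrial transcript. The share was 43.5% for MTND2P28, 61.9% for MTND1P23, 49.4% for MTCO1P12, 46.7% for MTATP6P1, 45.2% for MTCO3P12 and 29.1% for MTCO2P12. How reads with several matches were counted is not given in the sources used here, so the values of these pseudogenes are uncertain and may hold mitochondrial reads.

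The nuclear genes that make the rest of the respiratory chain did not fall with the mitochondrial mRNAs. Of 47 nuclear-encoded subunits tested, 0 passed the threshold in limma, and their median difference was 0.08, with 41 above 0, against 9042 of the 17950 tested genes. The member with the smallest p was NDUFA1, a small complex I subunit, at 0.30 ± 0.08 (adjusted p = 0.294), followed by COX7A2 of complex IV at 0.25 ± 0.08 (adjusted p = 0.415). At an unadjusted p below 0.05 there were 7 higher and 0 lower, against 4.01% and 4.46% of all tested genes. Of 32 genes that copy, transcribe or process mitochondrial DNA and RNA, 0 passed, with a median of 0.01 and 1 higher at an unadjusted p below 0.05. POLRMT, the mitochondrial RNA polymerase, differed by -0.12 ± 0.08 (adjusted p = 0.707), SLIRP, an mRNA-binding partner in mitochondria, by 0.13 ± 0.08 (adjusted p = 0.666), and TRMT10C, a subunit of mitochondrial RNase P, by 0.11 ± 0.07 (adjusted p = 0.684). Both of these lists were drawn up after the mitochondrial mRNAs had been seen to fall.

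Of the 19 genes that fell, 9 were nuclear genes of other kinds. In 8 of these 9 the groups did not overlap, against 3.38% of all tested genes lower without overlap. The 9 were picked on these same values, so the count is not separate support. The golgins GOLGA8A and GOLGA8B are close copies of each other, with 74.1% of the 50-base windows of GOLGA8A found unchanged in GOLGA8B and 71.9% the other way, so they may share reads and count as 1 observation. GOLGA8B was 10.93, 11.05 and 10.91 in the control libraries and 10.06, 10.44 and 10.20 with BRCA2 siRNA. It fell by 0.73 ± 0.08 (adjusted p = 0.00382). GOLGA8A was 11.45, 11.55 and 11.41 against 10.61, 10.98 and 10.80, and fell by 0.68 ± 0.08 (adjusted p = 0.00382). In both, every BRCA2 siRNA library lay below every control library.

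WSB1, a SOCS-box protein that recruits substrates to a ubiquitin ligase, was 11.99, 12.19 and 11.73 against 11.30, 11.62 and 11.25. It fell by 0.58 ± 0.07 (adjusted p = 0.00382), with no overlap. CCNL2, a cyclin involved in pre-mRNA splicing, was 11.50, 11.72 and 11.43 against 10.90, 11.25 and 11.01, and fell by 0.50 ± 0.07 (adjusted p = 0.0128), also without overlap. In WSB1 and CCNL2 library B was the highest of its group with either siRNA, so the letter-wise differences were more alike than the levels.

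CPNE7, a copine that binds phospholipids in the presence of calcium, was 9.21, 8.98 and 9.24 in the control libraries and 8.66, 8.44 and 8.63 with BRCA2 siRNA. It fell by 0.57 ± 0.09 (adjusted p = 0.0278) and the groups did not overlap. PLCH2, a phospholipase C, was 11.57, 11.77 and 11.37 against 10.98, 11.31 and 11.02. It fell by 0.47 ± 0.07 (adjusted p = 0.0228), with the highest BRCA2 siRNA library just under the lowest control library. ALS2CL was 11.66, 12.14 and 11.49 against 11.22, 11.56 and 11.17, with overlap, and fell by 0.45 ± 0.07 (adjusted p = 0.0321). In the blocked fit over all 11 libraries ALS2CL did not pass (adjusted p = 0.0617), nor did it without replicate B (adjusted p = 0.061).

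PAQR6, a membrane progestin receptor, lay below the median value of the tested genes. It stood at 6.50, 6.60 and 6.32 in the control libraries and 5.20, 5.52 and 5.58 with BRCA2 siRNA, and fell by 1.03 ± 0.16, or 2.05-fold (adjusted p = 0.0191). LPA, the gene of apolipoprotein(a), was 3.69, 4.61 and 4.63 against 3.06, 2.91 and 3.04, a fall of 1.30 ± 0.21 (adjusted p = 0.0321). Its BRCA2 siRNA libraries lay below the minimum value used for testing, and in the blocked fit over all 11 libraries it did not pass (adjusted p = 0.125). MTATP8P1, LPA, PAQR6, CCNL2, MT-ATP6, PLCH2 and ALS2CL fell outside the rule for named genes and are given because they complete the 19.

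**Figure D3:**
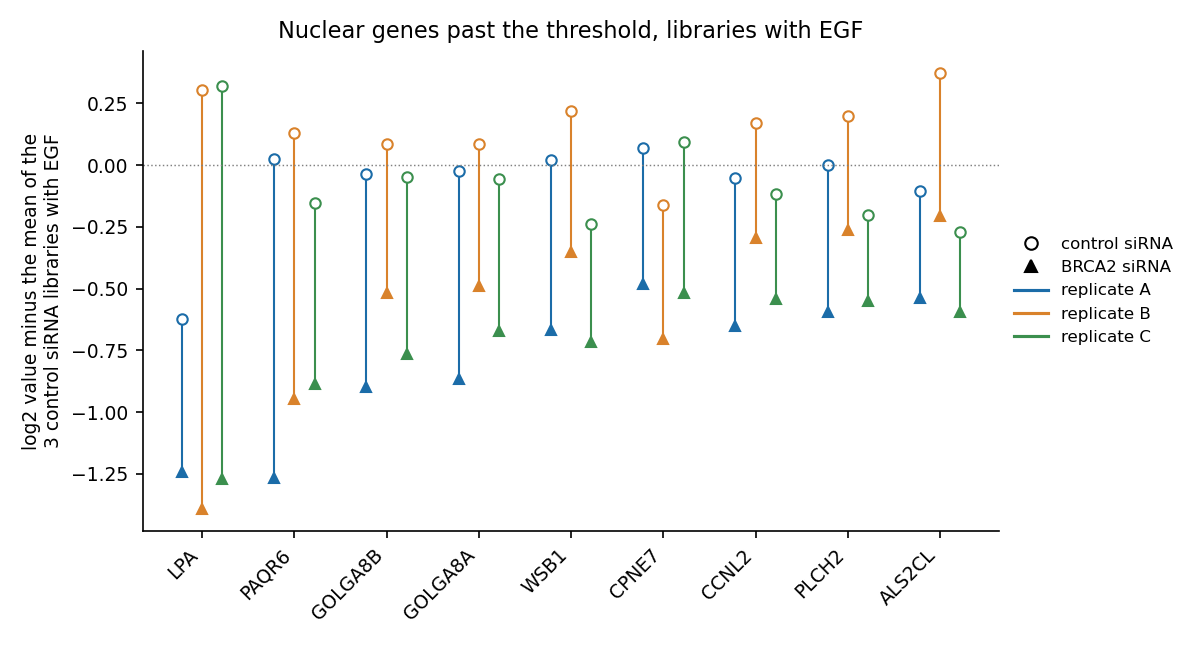
Values of the 9 other nuclear genes that fell, in each library with EGF, as log2 value minus the mean of the 3 control siRNA libraries. Open circles are control siRNA and filled triangles BRCA2 siRNA, joined within a letter. All lines run downwards, and ALS2CL is the 1 gene in which the groups overlap.

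The threshold fell in a continuous run of p-values. Just inside it were CPNE7 (-0.57, adjusted p = 0.0278), ALS2CL (-0.45, 0.0321) and LPA (-1.30, 0.0321). Just outside were ATG16L2 (-0.67, adjusted p = 0.0506), NPIPA3 (-0.66, 0.0702) and AGAP6 (-0.50, 0.0702), all of them lower as well.

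No gene passed in the higher direction. The highest-ranked candidates were led by histone genes. H1-1, a linker histone, was 9.31, 8.28 and 9.44 in the control libraries and 9.84, 8.91 and 9.76 with BRCA2 siRNA. Library B was the lowest of each group and the groups overlapped, although each letter was higher with BRCA2 siRNA (0.50 ± 0.09, adjusted p = 0.073). H4C16, which encodes histone H4, was 9.33, 9.04 and 9.56 against 10.08, 9.31 and 10.09 (0.51 ± 0.10, adjusted p = 0.0784). The core histone genes H2AC20 (0.38, adjusted p = 0.129), H2BC11 (0.44, adjusted p = 0.146), H2BC21 (0.34, adjusted p = 0.165) and H4C8 (0.31, adjusted p = 0.174) also did not pass.

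The other candidates were of mixed function. CLCA2, an epithelial p53-responsive membrane protein, differed by 0.33 ± 0.07 (adjusted p = 0.129), and DBI, an acyl-CoA-binding protein, by 0.35 ± 0.08 (adjusted p = 0.146). GALNT5, a mucin-type glycosyltransferase, differed by 0.40 ± 0.09 (adjusted p = 0.151). NSDHL, an enzyme of cholesterol synthesis, differed by 0.37 ± 0.08 (adjusted p = 0.174). MEG8, a long noncoding RNA, was 9.46, 9.25 and 9.22 against 9.79, 9.63 and 9.61 (0.37 ± 0.08, adjusted p = 0.16). Among the candidates named here it was the 1 gene whose groups did not overlap, which 2.51% of tested genes showed in the higher direction.

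Replication-dependent histone genes, whose mRNAs accumulate in S phase, had positive differences in all 15 listed members that were tested, with 0 past the threshold. The median was 0.28, with 0.29 in letter A, 0.15 in B and 0.33 in C. In limma 12 of the 15 had an unadjusted p below 0.05 in the higher direction, against the same 4.01% of all tested genes, and 14 were higher in all 3 letters, against 15.3%. In 0 of the 15 were the groups free of overlap. Without the block 0 of the 15 had an unadjusted p below 0.05 in limma, against 337 of the 17950 tested genes in either direction. With so few in all, a count of 0 says little about this list. The other 16 listed symbols were not matched in the table.

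Of the 37 listed genes of DNA replication and S phase, 0 passed the threshold. All 37 had positive differences, as did 9042 of the 17950 tested genes. In limma 24 had an unadjusted p below 0.05 (4.01% of all tested genes), and 26 were higher in all 3 letters (15.3% of all tested genes). The median was 0.20, with 0.30 in A, 0.23 in B and 0.08 in C. MCM3, a subunit of the replicative helicase, was 12.72, 11.76 and 13.28 in the control libraries and 13.16, 12.17 and 13.39 with BRCA2 siRNA (0.32 ± 0.08, adjusted p = 0.219). Library B was lowest and library C highest with either siRNA, and that spread between letters was several times the siRNA difference. MCM2, another subunit of that helicase (0.34, adjusted p = 0.243), and RRM2 of ribonucleotide reductase (0.27, adjusted p = 0.308) did not pass. Without the block 0 of the 37 had an unadjusted p below 0.05 in limma, against 337 of the 17950 tested genes in either direction. With so few in all, a count of 0 says little about this list.

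Of 33 genes of mitosis 0 passed, with a median of 0.03. In limma 3 were higher at an unadjusted p below 0.05, against 4.01% of all tested genes, and CCNA2, a cyclin of S and G2 phase, had the smallest p (0.21 ± 0.07, adjusted p = 0.469). Sterol synthesis and uptake had a median of 0.15 over 25 genes, with 0 past the threshold and 11 higher at an unadjusted p below 0.05, against 4.01% of all tested genes. Its medians by letter were 0.24, 0.22 and -0.02. HMGCS1, an early enzyme of the pathway, had letter-wise differences of 0.83, 0.32 and -0.04 (0.37 ± 0.12, adjusted p = 0.41).

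DNA repair and damage signalling gave no change past the threshold. Of 35 genes of homologous recombination and the Fanconi anaemia pathway 0 passed, with a median of 0.07. MUS81, a structure-specific endonuclease, had the smallest p at -0.26 ± 0.08 (adjusted p = 0.403), and EXO1, an exonuclease that resects DNA ends, differed by 0.19 ± 0.07 (adjusted p = 0.494). Of 35 other repair and signalling genes 0 passed, with a median of 0.05, and CLSPN, which relays the replication checkpoint to CHEK1, had the smallest p at 0.26 ± 0.08 (adjusted p = 0.363). Of 29 targets of p53, 0 had an unadjusted p below 0.05 in either direction, against 4.01% of all tested genes higher and 4.46% lower. Their median was 0.03. GDF15, a secreted p53 and stress target, differed by -0.22 ± 0.10 (adjusted p = 0.588).

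Genes that an siRNA transfection can set off likewise did not differ between the siRNAs past the threshold. Both groups were transfected, so a response common to both would cancel in the difference and cannot be seen here. Of 33 interferon-stimulated genes 0 passed and the median was 0.03, and IFI6 had the smallest p, at 0.41 ± 0.14 (adjusted p = 0.421). Of 16 genes of the small-RNA pathway 0 passed, and the median was 0.01.

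Several lists had negative medians mainly in letter A. NF-kB targets and inflammatory cytokines had a median of -0.16 over 19 genes, made up of -0.72 in A, 0.16 in B and 0.05 in C, and the median was 0.12 without replicate A. IL6 had letter-wise differences of -1.57, -0.59 and -0.01 (-0.72 ± 0.21, adjusted p = 0.326). NFKB2, an NF-kB subunit that NF-kB itself induces, had -0.76, 0.01 and -0.21 (adjusted p = 0.467). The EGF receptor family and its ligands had medians of -0.43, 0.07 and 0.02 in A, B and C over 12 genes. EGFR was lower in each letter (-0.57, -0.15 and -0.30, blocked difference -0.34 ± 0.09, adjusted p = 0.294), whereas the ligand gene NRG1 was lower in A only (-1.09, 0.03 and 0.02, adjusted p = 0.582). Targets of ATF4 and of the unfolded protein response had medians of -0.31, -0.06 and 0.07 over 28 genes, and 0 passed. HSPA5, the main chaperone of the endoplasmic reticulum, had -0.20, -0.32 and -0.20 (-0.24 ± 0.08, adjusted p = 0.376). Letter A gave the widest of the 3 differences in 16 of the 19 NF-kB genes, 11 of the 12 EGF receptor family genes and 24 of the 28 ATF4 genes, against 46.1% of all tested genes. Without replicate A the medians of the EGF receptor family and the ATF4 list were 0.05 and 0.01.

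**Figure D4:**
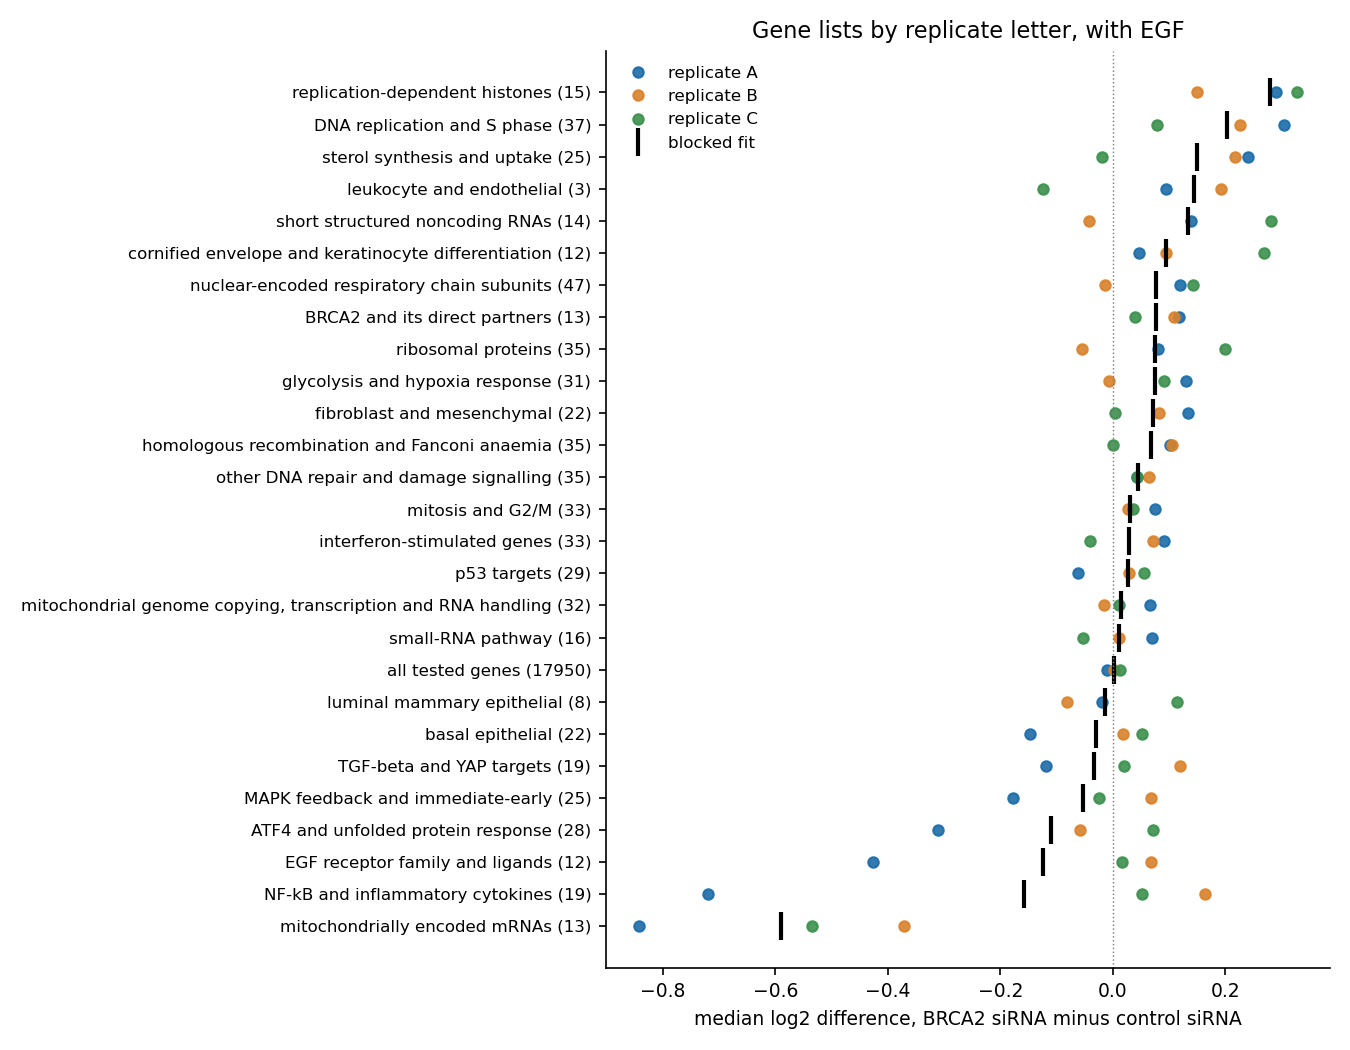
Median log2 difference (BRCA2 siRNA minus control siRNA, with EGF) of each gene list on the x axis, by replicate letter (coloured points) and in the blocked fit (black bar), with the number of tested genes in parentheses. The mitochondrial mRNAs are low in all 3 letters (-0.84, -0.37 and -0.53), histones are above 0 in all 3, and the NF-kB list is low in letter A (-0.72).

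The remaining lists had no gene past the threshold. MAPK feedback and immediate-early genes had a median of -0.05 over 25 genes, and FOSL1, an AP-1 subunit downstream of the cascade, had the smallest p at -0.30 ± 0.09 (adjusted p = 0.352). Glycolysis and hypoxia genes had a median of 0.07 over 31 genes, and VEGFA, the hypoxia-induced angiogenic factor, differed by -0.26 ± 0.09 (adjusted p = 0.441). TGF-beta and YAP targets had -0.03 over 19 genes. Ribosomal protein genes had 0.08 over 35 genes, with 33 above 0, as were 9042 of the 17950 tested genes. Their medians were 0.08, -0.06 and 0.20 in letters A, B and C. Only 2 of the 35 were higher in all 3 letters, against 15.3% of all tested genes. Short structured noncoding RNAs had 0.13 over 14 genes.

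Of the markers of cell type or state 0 passed. Basal markers had a median of -0.03 over 22 genes, luminal markers -0.01 over 8, and fibroblast and mesenchymal markers 0.07 over 22. Cornified envelope and keratinocyte differentiation markers had 0.09 over 12 genes. IVL, a cornified envelope precursor, had letter-wise differences of 1.15, 0.21 and 0.77 (0.71 ± 0.17, adjusted p = 0.182), and S100A8, a calprotectin subunit, had 0.61, 0.33 and 0.47 (0.47 ± 0.10, adjusted p = 0.146). The 3 leukocyte and endothelial markers had 0.14.

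The siRNA difference was then compared with that in medium without EGF, where letters A and C each hold both siRNAs. BRCA2 siRNA library B without EGF has no control partner and adds nothing to the blocked difference. The difference between media passed the threshold in 2351 genes (13.1% of 17950), with 1369 lower with EGF and 982 higher. The count depended on the model: it was 930 with 1 block for each letter over both media, 595 without a block, 157 without a mean-variance trend and 0 without the minimum value. It was 1084 without replicate B and 1197 without replicate C, where only the libraries with EGF of that letter were left out. Of the 19 genes that fell with EGF, 8 differed between media. Their differences with EGF, by which they were picked, are part of this contrast.

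Of the 13 mitochondrial mRNAs, 6 passed the threshold for an siRNA difference lower with EGF than without it, against 1369 of the 17950 tested genes. They were MT-ND4, MT-ND2, MT-ND1, MT-ATP6, MT-CO2 and MT-ATP8. The others did not pass, and of the 13 only MT-CO3 had a higher difference with EGF than without (by 0.22). The fall with EGF for which these mRNAs were noted is part of this contrast, so some of the excess can follow from that choice. The median of the 13 was -0.08 without EGF. MT-ND4 differed by -0.73 with EGF and by -0.01 without it (adjusted p of the difference = 0.00658), with 0.11 and -0.12 in letters A and C without EGF. MT-ATP6 differed by -0.49 and 0.18 (adjusted p of the difference = 0.00504). For MT-ND6 the values were -0.87 and -0.58, and the difference between them did not pass (adjusted p = 0.466). Without EGF its letters gave -1.08 in A and -0.08 in C, which is a wide spread. MT-CYB (-0.41), MT-CO3 (-0.32), MT-ND5 (-0.29) and MT-ND1 (-0.08) were also lower in both letters without EGF. MT-ATP8 (0.33), MT-CO2 (0.22) and MT-ND3 (0.00), like MT-ATP6, had differences without EGF that were not below 0.

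Among the 9 other nuclear genes, 6 were lower with BRCA2 siRNA in both letters without EGF, as were 36.2% of all tested genes. GOLGA8A (-0.68), GOLGA8B (-0.80), CCNL2 (-0.69), WSB1 (-0.44), ALS2CL (-0.45) and PAQR6 (-0.36) had differences without EGF whose contrast with those in EGF did not pass, which does not show that they are equal. These are values in libraries that the comparison with EGF did not use. The other 3 differed between media: CPNE7 was 0.19 without EGF (adjusted p of the difference = 0.00614), PLCH2 was 0.18 (0.00387) and LPA was 0.53 (0.0116), the last with 1.14 in letter A and -0.07 in C.

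**Figure D5:**
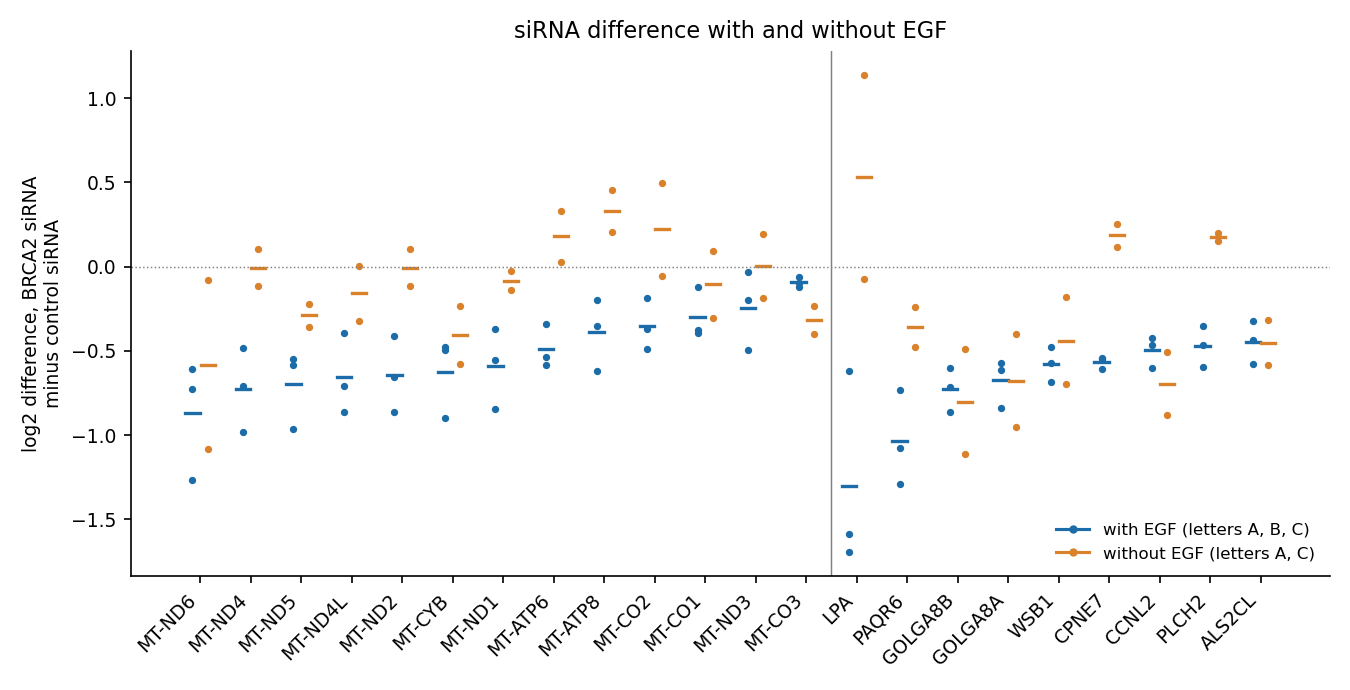
Log2 difference (BRCA2 siRNA minus control siRNA) with EGF (blue, letters A, B and C) and without EGF (orange, letters A and C) for the 13 mitochondrial mRNAs, left of the vertical line, and the 9 other nuclear genes that fell with EGF. Points are letters and bars their mean. The mitochondrial mRNAs centre on -0.59 with EGF and -0.08 without. GOLGA8A, GOLGA8B, CCNL2, WSB1, PAQR6 and ALS2CL lie below 0 in every letter of both media, and so do MT-ND6, MT-CYB, MT-CO3, MT-ND5 and MT-ND1.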

How the data were processed

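The authors deposited log2 values for 40460 Ensembl genes in each of the 11 libraries, between -2.94 and 20.62. Per the labels' protocols, RNA was depleted with RiboZero and made into libraries with ScriptSeq v2. The submitters' processing notes name hg19, TopHat2 2.0.11, DESeq2 and limma with no role or order. For the counter, annotation and log2 transform, nothing is given in the sources used here. The deposited table holds no counts, so depth is unknown and no intervals that need it are given. In every gene the mean of the 4 replicate A libraries equalled the mean of the 7 B and C libraries (largest difference 7.2e-09), so the values had been centred. A shift common to a letter drops out of a difference within letters.

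Genes with a value of at least 3.32 (log2 of 10, rounded) in at least 2 of the 11 libraries were tested with limma 3.58.1 (R 4.3.3; lmFit, then eBayes with trend). The model for the 6 libraries with EGF had siRNA and the letter as a block (2 residual degrees of freedom, with 11.5 from the prior). The difference between media used all 11 libraries with a block per letter within each medium (3 residual degrees of freedom). Tests were two-sided, with Benjamini-Hochberg adjustment over 17950 genes and a threshold of 0.05. The letters come from the labels. Deviations of same-letter libraries from their group means correlated across genes at -0.12 for A, 0.70 for B and 0.70 for C, and at -0.75 to 0.33 between different letters. The centring removed any deviation shared by all A libraries, so the value for A does not tell whether they are paired.

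Symbols were matched for 37585 identifiers (92.9%). The members and gene lists (24, plus 2 on mitochondria added after the data were seen) were chosen with earlier results of these data known. Named genes were BRCA2, up to 12 rises and 12 falls, by size, among passing genes that had a symbol, a mean above the median tested gene and 3 letter-wise differences of 1 sign, places left empty being filled by genes that did not pass in order of p, and up to 4 members of each list with the smallest p. Some genes within this rule are not reported here. Alternatives changed the block, samples, filter, normalization and moderation and left out the libraries with EGF of each replicate in turn.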

Additional observations from a re-analysis of the deposited data

Results flagged for a closer look

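The genes considered were BRCA2, the 19 that fell and the reported candidates in the higher direction. Of these, 12 had an siRNA difference that itself differed between medium with EGF and medium without EGF in limma (11 libraries, a block per letter within each medium). Among them were 8 of the 19 that fell, against 13.1% of all tested genes. The values are log2 differences with EGF minus those without, and the control without EGF has letters A and C only. Apart from BRCA2, the genes considered were picked by their differences with EGF, which are part of this contrast. GALNT5 gave 1.63 (0.40 with EGF and -1.22 without, adjusted p = 0.000111), and CLCA2 gave 0.88 (0.33 and -0.55, adjusted p = 0.000409). In both genes the difference with EGF had not passed the threshold by itself. MEG8 gave -0.70, with values above 0 in both media (0.37 and 1.07, adjusted p = 0.00688).

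BRCA2 itself gave -0.70 (0.05 and 0.75, adjusted p = 0.0125). LPA gave -1.84 (-1.30 and 0.53, adjusted p = 0.0116), CPNE7 -0.75 (-0.57 and 0.19, adjusted p = 0.00614) and PLCH2 -0.65 (-0.47 and 0.18, adjusted p = 0.00387). Among mitochondrial mRNAs, MT-ND4 gave -0.72 (adjusted p = 0.00658), MT-ATP6 -0.67 (adjusted p = 0.00504), MT-ND2 -0.64 (adjusted p = 0.00971) and MT-ND1 -0.51 (adjusted p = 0.0264). The nuclear copy MTND2P28, which may hold mitochondrial reads, gave -0.61 (adjusted p = 0.0151), next to -0.64 for MT-ND2.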

How the results depend on the processing

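The count of 19 genes that fell was 0 with no replicate block (337 at an unadjusted p below 0.05 in limma), 1 with 4 groups over all 11 libraries and no replicate block (MTATP8P1), 0 with no filter on low values (2121 at an unadjusted p below 0.05 in limma), 0 with no mean-variance trend (1382) and 37 with robust moderation. It ranged from 46 to 85 with 1 replicate left out, fits that leave 1 residual degree of freedom: 46 without A, 59 without B and 85 without C, of which 19, 18 and 19 were among the 19. The count that rose was 3 with robust moderation and ranged from 14 to 50 with a replicate left out. The other settings gave 15 to 20 falls and 0 rises. The blocked fit over all 11 libraries, with 16 falls, lost MT-ND6 (adjusted p = 0.0595), ALS2CL (0.0617) and LPA (0.125). BRCA2 was -0.043 without replicate B (adjusted p = 0.932) and ranged from -0.043 to 0.11 over the replicates left out. The 2351 genes that differed between media became 595 with no replicate block, 930 with 1 replicate block for each letter over both media, 0 with no filter and 157 with no mean-variance trend. They became 1084 to 1656 with a replicate left out of the libraries with EGF only (1084 without B, 1197 without C). The cause of these shifts was not tested. Each difference is the same with and without the block, so leaving it out does not give a smaller difference. The standard error was 0.07 with the block and 0.15 without it for WSB1, but 0.17 in both fits for MTATP8P1. All 13 mitochondrial mRNAs were lower in each alternative run, with a median from -0.69 to -0.46 over the replicates left out. Being lower in all 3 letters largely fixed that direction in advance. At an adjusted p below 0.05 in limma, 0 of the 13 passed with no replicate block, no filter or no mean-variance trend. Of 369 values of named genes under the alternatives, 274 kept their direction and side of the threshold, 80 lost the call and 15 gained it. Of 240 list medians 6 moved beyond the spread between replicates, a count largely fixed in advance. Changing only the block, or adding the libraries without EGF, leaves every list median as it was. The spread is also a wide yardstick: the NF-kB median went from -0.16 to 0.12 without replicate A and did not count as moved. The depth is unknown, so what it limits cannot be given.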
